A study of Mus musculus with 10 samples.

Results

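The MS4A genes of myeloid and T cells measured in mouse lung on an Affymetrix expression array numbered 7, namely Ms4a4b, Ms4a4c, Ms4a4d, Ms4a6b, Ms4a6c, Ms4a6d and Ms4a7, out of 13382 genes tested. They were picked by name, as family members known from these cells, after the difference between smoke-exposed and control lungs in the same arrays had been seen, so their own difference is given as a description, and a call of the fit over all genes on a member counts as no test of it. All probe sets whose platform annotation names a member were taken, 14 of 45037, and 0 of the 14 name another gene. Of these, 11 were among the brightest 60% of probe sets, by mean over the arrays, and were tested with the rest of the table, at least 1 for each member. The other 3, 1 each for Ms4a4b, Ms4a6d and Ms4a7, were too dim for that filter.

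The lungs came from C57BL/6J mice of the Jackson Laboratory aged 2 weeks, of sex unknown per the labels, with 1 mouse on each array. The 6 smoke-exposed mice shared a cigarette smoke chamber with their mother, starting when they were 1 day old. They spent 1 hour there daily in the first 7 days and 2 hours daily in the next 7, and particulates averaged 90 mg per cubic metre. The 4 control mice breathed filtered air in another place. The labels give no litter or array batch, so errors cover only the spread between these arrays, and precision is limited by their number. The comparison addresses which lung transcripts differ after smoke exposure through the first weeks of life.

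MS4A proteins cross the cell membrane several times and act mostly beside other receptors, whose signals they tune. The family's best known members are the B cell antigen CD20, product of Ms4a1, and the beta chain of the high-affinity IgE receptor, product of Ms4a2. In the mouse, Ms4a4b is known from T cells, where its product associates with the costimulatory receptor GITR, while Ms4a6c, Ms4a6d and Ms4a7 are known from monocytes and macrophages, cells that lung tissue holds in its airspaces, walls and vessels.

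The genes form 1 cluster on chromosome 19. In the RefSeq gene order the protein-coding genes run Ms4a14, Ms4a7, Ms4a4a, Ms4a4c, Ms4a4b, Ms4a6c, Gm8369, Ms4a6b, Ms4a4d, Ms4a6d and Ms4a2, so the 7 members are interrupted by Ms4a4a and Gm8369 alone. RefSeq promoter windows on GRCm38.p6, from 250 bases before a gene's start to 50 after it, were matched for 6 members, with 7 windows because Ms4a7 has a pair of starts. Ms4a6d was not matched. The windows of 4 members are shown because they form the closest pairs in sequence; all 4 lie on the plus strand, printed 5′ to 3′. Capitals mark matches to GAGGAA, the core bound by the myeloid and B cell factor PU.1, in the first pair, and to GAAANNGAA, a core of the element bound by interferon-regulated factors, in the second pair.
Ms4a4c, chr19:11407411-11407710: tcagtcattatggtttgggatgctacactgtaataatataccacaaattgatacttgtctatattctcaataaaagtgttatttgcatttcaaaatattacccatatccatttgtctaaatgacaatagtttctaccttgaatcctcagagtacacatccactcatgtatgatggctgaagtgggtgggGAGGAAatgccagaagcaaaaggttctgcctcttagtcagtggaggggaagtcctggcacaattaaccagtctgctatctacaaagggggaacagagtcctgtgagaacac
Ms4a4b, chr19:11443308-11443607: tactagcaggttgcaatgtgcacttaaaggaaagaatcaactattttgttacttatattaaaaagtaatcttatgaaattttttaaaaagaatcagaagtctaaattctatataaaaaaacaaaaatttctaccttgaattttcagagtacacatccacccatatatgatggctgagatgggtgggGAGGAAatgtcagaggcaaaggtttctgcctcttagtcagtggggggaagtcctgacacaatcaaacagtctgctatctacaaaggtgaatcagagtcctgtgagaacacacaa
Ms4a6c, chr19:11469118-11469417: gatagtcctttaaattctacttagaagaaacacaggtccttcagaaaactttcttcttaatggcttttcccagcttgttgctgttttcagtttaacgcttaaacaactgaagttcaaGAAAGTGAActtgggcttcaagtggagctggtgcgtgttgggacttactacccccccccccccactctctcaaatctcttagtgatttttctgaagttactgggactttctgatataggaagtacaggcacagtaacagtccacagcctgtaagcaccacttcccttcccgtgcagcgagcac
Ms4a6b, chr19:11518309-11518608: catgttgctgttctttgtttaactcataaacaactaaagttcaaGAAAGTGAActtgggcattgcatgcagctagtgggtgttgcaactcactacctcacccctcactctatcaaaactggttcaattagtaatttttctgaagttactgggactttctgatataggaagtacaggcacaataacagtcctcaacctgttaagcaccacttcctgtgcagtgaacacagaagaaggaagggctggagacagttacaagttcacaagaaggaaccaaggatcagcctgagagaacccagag

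Ms4a6b and Ms4a6c were identical at 192 of 225 aligned bases (85.3%), and their windows share a run of 48 bases, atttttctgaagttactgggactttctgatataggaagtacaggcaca. Ms4a4b and Ms4a4c were identical at 230 of 281 aligned bases (81.9%), with a longest shared run of 20 bases, ttctgcctcttagtcagtgg. Every other pair of the 7 windows lay between 56.3% and 68.1%, with shared runs of 7 to 13 bases. The promoters therefore pair 4b with 4c and 6b with 6c, and each pair joins a gene described in T cells to one of monocytes.

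Both strands of the windows were searched for short motifs. GAAANNGAA was found in 4 of 7 member windows, starting at base -133 of Ms4a6c, at -206 of Ms4a6b and at -148 and -71 of the pair of Ms4a7 windows, and in 8.56% of all 32851 RefSeq windows. This short core was added after the Ms4a6b and Ms4a6c windows had been read, so its count in them is not independent of the choice. The longer form searched first, the same letters followed by 1 further A, was found in 0 of 7 member windows and in 3.44% of all windows. GAGGAA was found in 3 of 7, at -61 of Ms4a4c, -64 of Ms4a4b and 44 of the other Ms4a7 start, and in 28.3% of all windows. Matches are a description of letters. The short interferon core lies in windows of Ms4a6b, Ms4a6c and Ms4a7 and not in those of Ms4a4b, Ms4a4c and Ms4a4d. Whether matches go with the changes was not tested.

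Levels are given as log2 of the quantile-normalised intensity of 1 probe set, and a change is the smoke mean minus the control mean on that scale, with the standard error (SE) of a limma fit over all tested probe sets. Each gene is represented by its brightest tested probe set. Levels of different probe sets are not set against each other, because probes differ in brightness. In whole lung, fewer cells of a type and less RNA per cell cannot be told apart.

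Of the 7 members, 6 were lower in all 6 smoke lungs than in any control lung, where 2.11% of all genes were; Ms4a7 was the exception. The median change of the 7 was -1.58, beside 0.06 over all genes. The limma fit called 3 of them lower, Ms4a4c, Ms4a6b and Ms4a6c, against a background of 0.702% of genes, and 0 higher, against 0.0224%. Since this contrast guided the choice of the members, these counts are not a result about the family. The members ranged from an 8.01-fold lower level for Ms4a4c to a difference within the spread of the arrays for Ms4a7.

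**Figure D1:**
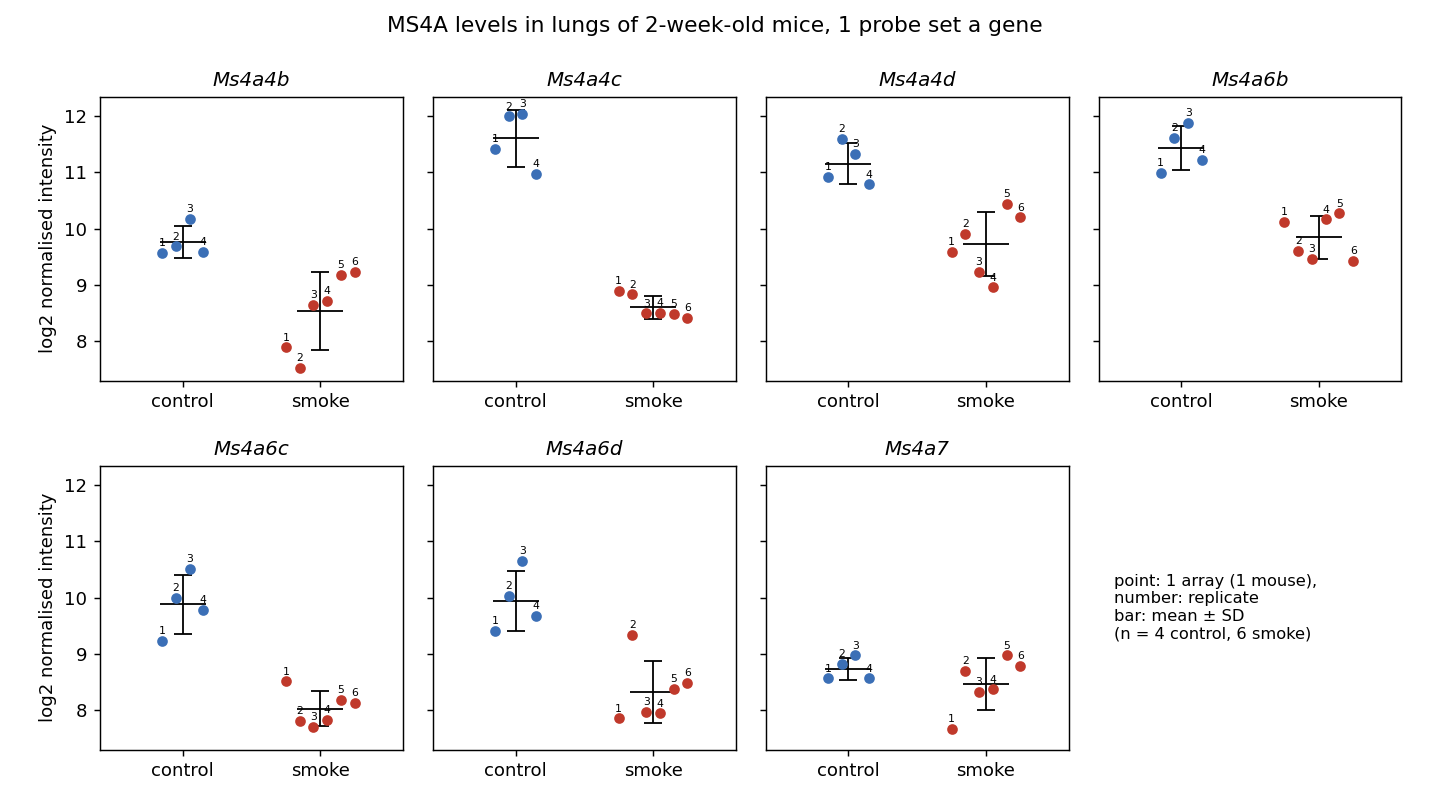
Log2 normalised intensity (vertical axis) of the representative probe set of each of the 7 MS4A genes, with 1 point for each array, numbered by replicate, in 4 control and 6 smoke lungs; bars give the mean and SD. The groups do not touch for 6 genes and overlap for Ms4a7, and Ms4a4c has the widest gap, with controls from 10.98 and smoke arrays up to 8.89.

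Ms4a4c, a gene of mouse monocytes and other blood cells, had the largest difference. Its control arrays read 11.42, 11.99, 12.04 and 10.98, and the smoke arrays ran from 8.42 through a median of 8.50 to 8.89. The smoke arrays were close to each other, with an SD of 0.20 (n = 6) against 0.51 (n = 4) among controls, and the lowest control lay far above the highest of them. The change was -3.002 ± 0.23 (SE), from a mean of 11.61 to 8.60, or 8.01-fold lower. Its other probe set, 1420671_x_at, had controls at 10.38, 11.01, 11.04 and 10.34 and smoke arrays from 7.73 through 8.44 to 8.89. Both probe sets have suffixes, _s_at and _x_at, that mark probes able to bind more than 1 transcript, so near-identical family members may contribute to them; the second gave a smaller change of -2.30 ± 0.25, again without overlap.

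Ms4a4b, the T cell gene whose promoter resembles that of Ms4a4c, differed less. Its control arrays read 9.57, 9.68, 10.17 and 9.58, and smoke arrays 1 to 6 read 7.89, 7.53, 8.65, 8.71, 9.18 and 9.23. The groups did not overlap, but the smoke arrays were spread, with an SD of 0.69 (n = 6) against 0.28 (n = 4) in controls. The change was -1.22 ± 0.34, or 2.33-fold. The low pair of smoke arrays, 1 and 2, also had the highest ratios of 3′ to 5′ actin signal, a measure of RNA integrity, at 31.6 and 29.4, where controls ran from 3.96 to 10.4. The same ratio for Gapdh was raised on array 2 alone, at 4.76 and 9.16 where controls ran from 4.82 to 5.89. The high pair, 5 and 6, had the lowest actin ratios among smoke arrays, 2.18 and 2.98. They were also the smoke arrays high in Xist, the transcript of the inactive X chromosome, as were controls 2 and 4. The part of RNA integrity and sex in this order was not tested; without smoke arrays 1 and 2 the change was -0.82. The dim probe set 1425325_at read 5.51, 5.74, 5.90 and 6.10 in controls and from 3.98, the floor set on dim values, to 5.51 after smoke, so its groups met at their edge.

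Ms4a4d had 1 probe set. Its control arrays read 10.92, 11.60, 11.32 and 10.79, and its smoke arrays ran from 8.96 through a median of 9.75 to 10.44. The groups were separate by a margin smaller than the spread within either, and smoke arrays 5 and 6, at 10.44 and 10.20, lay nearest to the controls. The change was -1.43 ± 0.30, or 2.70-fold.

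Ms4a6b, described in mouse T cells, had controls at 10.99, 11.62, 11.87 and 11.22 and smoke arrays from 9.43 through 9.86 to 10.27. The spread was alike in the groups, with SDs of 0.39 (n = 4) in controls and 0.38 (n = 6) after smoke, and the groups were well apart. The change was -1.58 ± 0.24. The second probe set, 1439956_at, read 8.16, 8.83, 9.81 and 9.28 in controls and from 7.07 through 7.66 to 8.13 after smoke. Its change was -1.39 ± 0.32, with the highest smoke array just under the lowest control.

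Ms4a6c, which marks mouse monocytes, is the member whose probe sets disagreed. The representative 1450234_at read 9.23, 9.995, 10.51 and 9.79 in controls and from 7.70 through 7.98 to 8.52 after smoke, a change of -1.85 ± 0.26, or 3.60-fold. Its groups did not overlap. The other, 1457725_at, read 8.28, 8.19, 8.39 and 8.33 in controls and from 7.70 through 8.39 to 8.70 after smoke, a change of -0.02 ± 0.23. The difference in Ms4a6c thus rests on 1 of its 2 probe sets, and the mean over both gave -0.94.

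Ms4a6d, a macrophage gene whose product is known in the mouse to pair with the complement receptor Vsig4, had controls at 9.41, 10.03, 10.65 and 9.67 on 1419599_s_at. Smoke arrays 1 to 6 read 7.86, 9.34, 7.97, 7.95, 8.37 and 8.48. Smoke array 2 stood just under the lowest control while the other smoke arrays were clearly lower, and the change was -1.61 ± 0.33, or 3.06-fold. As for Ms4a4c, the _s_at suffix marks probes able to bind more than 1 transcript. The probe set 1419598_at read 8.0004, 8.66, 9.01 and 7.996 in controls and from 4.56 through 6.57 to 7.12 after smoke. It changed by -2.15 ± 0.49, without overlap and with a wide spread among smoke arrays (SD 0.99, n = 6). With a smoke mean of 6.27, it passed the filter through its control mean of 8.42. The third, 1449539_at, sat at the floor on nearly all arrays and carries no comparison.

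Ms4a7, a gene of tissue macrophages, did not separate the groups. Its controls read 8.57, 8.83, 8.97 and 8.57, and smoke arrays 1 to 6 read 7.68, 8.70, 8.33, 8.37, 8.97 and 8.79. Only 3 of 6 smoke arrays lay below the lowest control, and the change of -0.26 ± 0.26 was about the size of its error. The dim probe set 1445365_at read 6.02, 4.55, 5.70 and 5.17 in controls and from 3.98 through 4.55 to 5.75 after smoke, and overlapped too. Of the 7 it is also the gene at the other end of the cluster from Ms4a6d, next to Ms4a14.

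**Figure D2:**
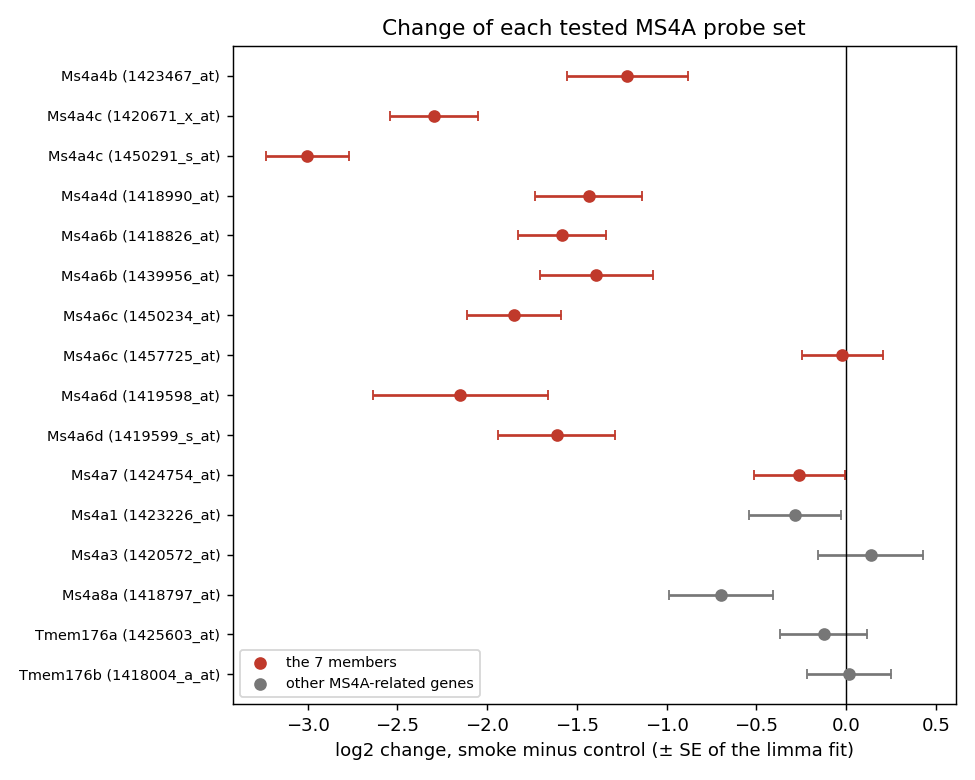
Log2 change from control to smoke lungs (horizontal axis) with the SE of the limma fit, for each of the 11 tested probe sets of the 7 members (red) and for 5 related genes (grey). All 11 red points lie below 0, with 1457725_at of Ms4a6c and the Ms4a7 probe set next to 0, beside the grey points between -0.70 and 0.14.

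Counted by probe set, 9 of the 11 tested were lower without overlap, beside 2.11% of all genes. A change below 0 was seen in 11 of 11, beside 43.1% of all genes. Both shares are over genes, with 1 probe set each, and not over all probe sets. Several of the 11 belong to the same gene. Among the 9, 1419598_at of Ms4a6d had a smoke mean of 6.27 and passed the filter through its control mean of 8.42. Since the contrast guided the choice of the members, these counts are not a result about the family. The 2 tested probe sets that overlapped were 1457725_at of Ms4a6c and 1424754_at of Ms4a7. By representative probe set, the smoke arrays were not ranked alike across the members. There, smoke array 1 was lowest of the 6 in Ms4a6d and Ms4a7 but highest in Ms4a4c and Ms4a6c. Smoke array 5 was highest in Ms4a4d, Ms4a6b and Ms4a7. Control 3 was the highest control in Ms4a4b, Ms4a4c, Ms4a6b, Ms4a6c, Ms4a6d and Ms4a7. Other probe sets can order the arrays otherwise, as on 1457725_at of Ms4a6c, where smoke array 1 was the lowest smoke array, at 7.70.

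The wider family, as a list of genes outside the 7, was tested with the whole table. Of 13 listed, 10 were matched to the annotation and 5 passed the filter; Ms4a4a, Ms4a5 and Ms4a14 were not analysed here. None of the 5 passed limma's test in either direction, and their median change was -0.13. At an unadjusted p under 0.05, 1 of the 5 was lower and 0 were higher by limma, beside 598 lower and 769 higher of all 13382 genes. Ms4a1, which encodes CD20 of B cells, changed by -0.29 ± 0.25, with a 95% interval from -0.84 to 0.27 (limma, adjusted p = 0.729). Ms4a8a had the lowest value, -0.70 ± 0.29, with an interval from -1.33 to -0.07 (limma, adjusted p = 0.456). Ms4a3, a gene of granulocyte and monocyte precursors, changed by 0.14 ± 0.29 (limma, adjusted p = 0.893). Its sign turned with array weights, to -0.19, and without smoke array 1, to -0.01. The more distant relatives Tmem176a and Tmem176b changed by -0.13 ± 0.24 and 0.02 ± 0.23 (limma, adjusted p = 0.879 and 0.988). Ms4a2, Ms4a10, Ms4a13, Ms4a15 and Ms4a18 were below the filter. The interval of Ms4a8a covers the -1.22 of Ms4a4b, all 5 intervals cover the -0.26 of Ms4a7, and whether these genes differ from the 7 members was not tested.

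Proteins known to work beside MS4A members were listed as well, 7 in all, of which 5 passed the filter and 1 fell. Tyrobp, which encodes the adaptor DAP12 of myeloid and NK cell receptors, fell by 1.01 ± 0.17 (limma, adjusted p = 0.0162) and was below every control in 6 of 6 smoke arrays. That call was lost without control replicate 2, 3 or 4 (limma, adjusted p = 0.0859, 0.0996 and 0.0747) and with median centring (0.205). Vsig4, the partner of the Ms4a6d product, changed by 0.03 ± 0.30 (limma, adjusted p = 0.984), beside the -1.61 of Ms4a6d. Tnfrsf18, which encodes GITR, the partner of the Ms4a4b product, changed by -0.03 ± 0.21 (limma, adjusted p = 0.970), beside the -1.22 of Ms4a4b. Clec7a, which encodes the beta-glucan receptor Dectin-1, and Fcer1g, the common gamma chain of Fc receptors, changed by -0.03 ± 0.23 and -0.17 ± 0.37 (limma, adjusted p = 0.981 and 0.896). Trem2 and Fcer1a were below the filter.

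Markers of the cells that carry MS4A genes are given here beside the members. Of the T cell list, 12 of 22 genes passed the filter, 0 were called in either direction by limma and 0 had an unadjusted p under 0.05. Its mean log2 level ran from 7.54 to 7.83 in controls and from 7.38 to 8.11 after smoke, and its median change was -0.05. Defining T cell markers were dim, since Cd3e, Cd4 and Cd2 lay below the filter, and Cd3d, Cd3g and Cd8a had changes of -0.39, -0.20 and -0.08 that did not pass. The 4 genes of the list with the smallest p went the other way. Cd28, Zap70, Thy1 and Cd5 had changes of 0.65, 0.51, 0.37 and 0.31, which did not pass either. The 95% intervals ran from -1.89 to 1.11 for Cd3d, from -0.92 to 0.53 for Cd3g and from -0.83 to 0.68 for Cd8a. That of Cd3d covers the changes of Ms4a4b and Ms4a6b, and those of Cd3g and Cd8a do not. The part of T cell share in the changes of Ms4a4b and Ms4a6b was not tested.

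Of the monocyte list, 13 genes were tested and 2 fell, Plac8 with a change of -1.76 ± 0.24 (limma, adjusted p = 0.00381) and the Fc receptor gene Fcgr4 with one of -1.06 ± 0.19 (limma, adjusted p = 0.0226). Its median change was -0.19, and its mean level ran from 9.90 to 10.41 in controls and from 9.63 to 10.26 after smoke. After Plac8 and Fcgr4, F13a1 and Treml4 had the smallest p, with changes of -0.63 and -0.78. Neither passed (limma, adjusted p = 0.345 and 0.391). Of the macrophage list, 18 were tested and 1 fell, the Fc receptor gene Fcgr1, with a change of -1.22 ± 0.21 (limma, adjusted p = 0.0215). The median change of that list was -0.64, and its mean level ran from 9.73 to 10.17 in controls and from 8.91 to 9.82 after smoke, so that its ranges overlapped only at their edges. At an unadjusted p under 0.05, 6 of the 18 macrophage genes were lower and 0 higher, and 4 of the 13 monocyte genes were lower and 1 higher. Over all 13382 genes, 598 were lower and 769 higher at that threshold. Next to Fcgr1 by p came the lipoprotein lipase gene Lpl, the chitinase-like gene Chil3 and the engulfment receptor gene Mertk, with changes of -0.61, -0.40 and -0.76 that did not pass (limma, adjusted p = 0.227, 0.464 and 0.477). The calls of Fcgr4 and Fcgr1 were each lost in 5 of 10 single omissions, among them control replicates 2, 3 and 4, with adjusted p up to 0.139 and 0.138 by limma, and that of Plac8 in none. Of the neutrophil list, 4 of 9 tested genes were called lower by limma, namely S100a8, S100a9, Mmp8 and Stfa2l1. The count was 2 of 9 without control replicate 1 or 3 and 1 of 9 without control replicate 2. Camp, Mmp9, Csf3r, Ltf and Ngp did not pass, with changes of -0.84, -0.47, -0.26, -0.06 and 0.001. The mean level of that list lay between 9.89 and 9.98 in controls and between 8.74 and 9.29 in smoke lungs. The lung epithelium list lay between 11.97 and 12.31 in controls and between 11.79 and 12.42 in smoke lungs. The list for B cells, which express Ms4a1, lay higher in every smoke lung than in any control lung, at 7.94 to 8.48 against 7.44 to 7.70. Its median change was 0.61, and of 11 genes tested 0 passed by limma in either direction, although 7 had higher and 1 had lower values with an unadjusted p under 0.05. The NK cell, dendritic cell and mast cell lists, of 8, 8 and 5 tested genes, had 0 calls by limma and 0 genes at an unadjusted p under 0.05. The part of each cell type's share in the members' levels was not tested.

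Each member was also set against its marker lists on the same array, as a description from the same contrast that draws nothing about a cause. How many other genes would separate the groups in this way was not counted, so the counts below are not a result about the members. Only the change of such a difference is read, because probe sets differ in brightness. Ms4a4c minus the mean of the monocyte and macrophage lists went from 1.53 in controls to -1.05 after smoke, a change of -2.58. Ms4a6b minus the T cell list went from 3.71 to 2.09, a change of -1.62. Ms4a4b minus that list went from 2.04 to 0.78, a change of -1.26. In these 3 genes all 6 smoke arrays lay below the lowest control. Ms4a6c changed by -1.42 and Ms4a6d by -1.19 relative to the monocyte and macrophage lists, also with 6 of 6 below the lowest control. With the mean over a gene's probe sets, that of Ms4a6c was -0.51. Ms4a4d changed by -1.01, with 5 of 6 below. Ms4a7 changed by 0.17, with 1 of 6 below.

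**Figure D3:**
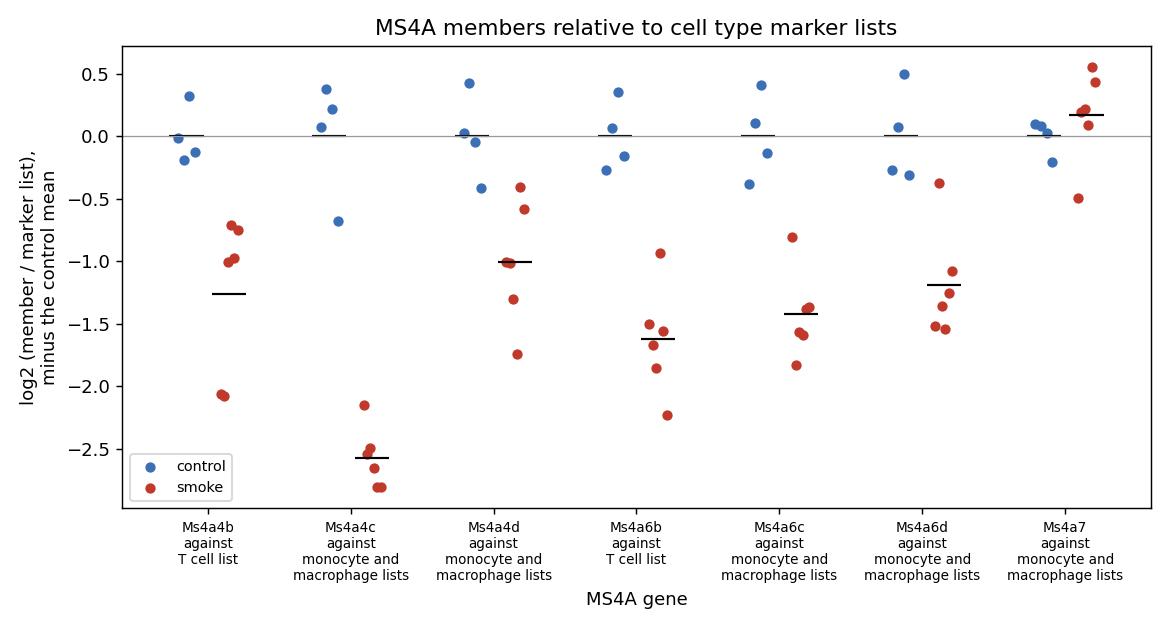
Log2 level of each MS4A gene minus the mean level of its marker list on the same array, with the control mean set to 0 (vertical axis), for 4 control and 6 smoke arrays; black lines are group means. Smoke points of 5 genes lie below every control point, 5 of 6 do for Ms4a4d, and Ms4a7 overlaps, with a mean of 0.17.

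The members were also set beside genes induced by interferons, a list of 30 of which 26 were tested. Of these, 23 fell and 0 rose by limma, with a median change of -2.39; earlier results on these arrays had shown this fall, so it is background here and not support. The list's mean level ran from 11.22 to 11.65 in controls and from 8.63 to 9.38 after smoke. Beside its median, the change of Ms4a4c was larger and those of the other members smaller.

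**Figure D4:**
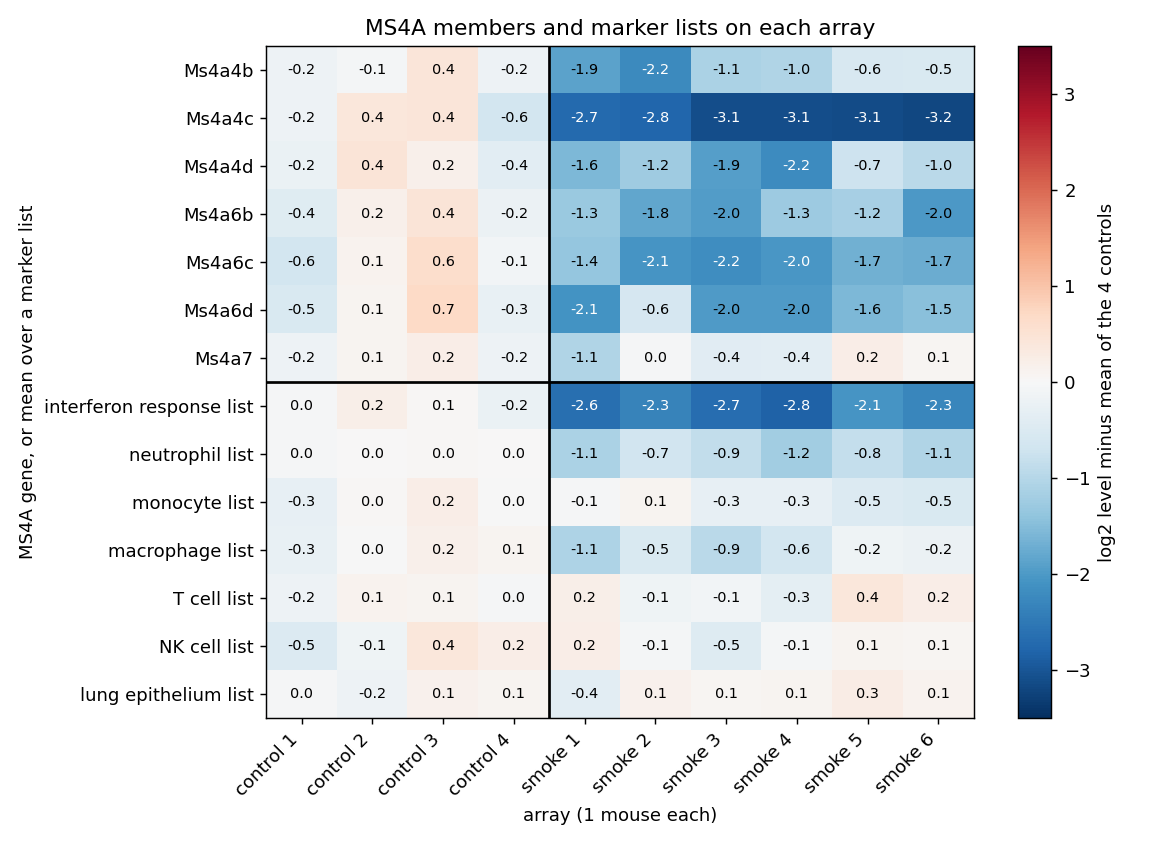
Log2 level minus the mean of the 4 controls (colour and printed value) on each of 10 arrays, for the 7 MS4A genes (upper rows) and the mean of 7 marker lists (lower rows). Ms4a4c and the interferon response list are more than 2 below the controls on every smoke array, while the T cell, NK cell and monocyte lists stay within 0.6 of 0 on all arrays.

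The genes whose levels over the 10 arrays lay closest to each member were found by the root mean square (RMS) difference of log2 levels after each gene was centred on its own mean, as a description with no test. For Ms4a4c they were Herc6 at 0.239, Gbp6 at 0.290 and Igtp at 0.293, where the median over all genes was 1.58. Herc6, Gbp6 and Igtp are known as interferon-induced in the mouse. For Ms4a6b they were Eif2ak2, which encodes the kinase PKR, at 0.235, Trim34a at 0.284 and Ifi209 at 0.311, beside a median of 0.966. For Ms4a4d they were Trim14 at 0.225, Irf9, a subunit of an interferon-activated transcription factor, at 0.241 and the peptide transporter gene Tap1 at 0.280, beside 0.941. Of these 9 genes, 2 (Herc6 and Tap1) are in the interferon response list used here. That list is a selection, so genes outside it, such as Gbp6 and Igtp, can be interferon-induced too. A small RMS among genes with a like change follows from the change itself.

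For Ms4a6c the closest were Plac8 at 0.343, Tor3a at 0.359 and Samd9l at 0.362, and Ms4a6b was closer still at 0.303, the smallest distance between any member and another. Those 2 genes are also the pair with the most alike promoter windows. For Ms4a6d the closest were the inflammatory caspase gene Casp4 at 0.328, Trim5 at 0.341 and Trim12c at 0.369, and the nearest member was Ms4a4d at 0.457. Ms4a4b lay nearest to Apobec1, an RNA-editing deaminase gene, at 0.201, Arhgef3 at 0.237 and Aass at 0.239, and its nearest member, Ms4a6b, was at 0.587. Ms4a4b and Ms4a4c, the other pair of like promoters, were not each other's nearest members, since Ms4a6c was nearest to Ms4a4c at 0.652. Ms4a7 lay nearest to Ttc1 at 0.118, Anapc10 at 0.126 and Slco3a1 at 0.138, where the median over all genes was 0.546, and its nearest member, Ms4a4b, was at 0.641.

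Across the whole table, 94 genes were lower and 3 higher by limma, at an adjusted p under 0.05, and 58 and 60 were lower without control replicates 2 and 3. Array medians ran from 7.01 to 7.70 on the log2 scale before normalisation, pairwise correlations of arrays from 0.838 to 0.961, and 0 pairs held identical values.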

How the data were processed

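The authors deposited 1 linear intensity per probe set and array for 10 arrays, from Trizol RNA labelled as cRNA with an ENZO kit, per the labels' protocols. For the summarising program, a name is not given in the sources used here. A single value of 0 was replaced by the smallest positive one, log2 of the deposited intensities was taken, arrays were quantile normalised, and values under the 10th percentile (an intensity of 15.8, log2 3.98) were set to it. The table holds 45101 probe sets; 64 are Affymetrix controls, which were dropped, and the brightest 60% of the rest by mean, 27022, entered the tests. Symbols came from the platform annotation: 34945 probe sets had 1 symbol, 932 several and 9160 none here. The groups were compared in R 4.3.3 with limma 3.58.1 (lmFit, eBayes with trend; two-sided, Benjamini-Hochberg over all tested probe sets, threshold 0.05), tested first on simulated data. Each of 13382 genes is represented by the brightest tested probe set that names it alone.

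The members and all gene lists (176 entries, 159 matched) were chosen with earlier results of these data known. Named genes were the 7 members, the measured genes of the wider family and of the partner list, 3 genes closest to each member, and, of the 4 with the smallest p in each other list, those beside which a member's result is set. Cd3d, Cd3g, Cd3e, Cd4, Cd2 and Cd8a were added as defining markers after their values were seen. Camp, Mmp9, Csf3r, Ltf and Ngp, the tested neutrophil genes that did not pass, were named as well. Alternatives changed the normalisation, floor, filter, variance model, array weights, probe set choice and replicate block, and left out each array in turn. Of 4 motifs searched in the promoter windows, 1 is not reported here. Plots used matplotlib 3.10.9.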

Additional observations from a re-analysis of the deposited data

How the results depend on the processing

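Each result was recomputed under up to 23 alternatives, 1 of them (without smoke arrays 1 and 2, for their actin ratios) chosen after seeing the data; no called result reversed. Members lower without overlap numbered 5 or 6 in every alternative, where 1.67% to 7.81% of all genes were. They numbered 5 when _x_at and _s_at probe sets were left out and 6 members passed the filter. That alternative leaves out both probe sets of Ms4a4c, the member with the largest change. Changes ran from -1.52 to -0.82 for Ms4a4b, -3.22 to -2.65 for Ms4a4c, -1.73 to -1.23 for Ms4a4d, -1.73 to -1.43 for Ms4a6b, -2.05 to -0.94 for Ms4a6c, -2.15 to -1.37 for Ms4a6d and -0.45 to -0.07 for Ms4a7. The members' median change ran from -1.73 to -1.37 over single omissions.

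Members called lower by limma, 3 with all arrays, numbered 5 with array weights, 5 with the mean over a gene's probe sets, 6 with arrays 1 to 4 of each group and 6 with a replicate block on those arrays, and 2 to 4 over single omissions. The same counts over all genes lower were 142 with array weights, 330 with arrays 1 to 4 and 339 with the replicate block, and 58 to 101 over single omissions. Genes higher, 3 with all arrays, numbered 8 on the values as deposited, 5 with median centring, 5 with the floor at the 25th percentile, 7 with no filter, 10 with the upper 40%, 41 with array weights, 424 with arrays 1 to 4, 451 with the replicate block, 10 without smoke arrays 1 and 2, 14 with the mean over probe sets, and 1 to 7 over single omissions. Blood cell markers lower, 7 with all arrays, numbered 12 with arrays 1 to 4, 12 with the replicate block and 2 to 7 over single omissions; markers higher, 0 with all arrays, numbered 1 with array weights, 3 with arrays 1 to 4 and 2 with the replicate block. The causes were not tested.

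Same-numbered arrays did not deviate together (correlations of -0.04, 0.07, -0.07 and 0.08). No pairing of the mice by replicate number was thus seen, although so few arrays cannot exclude one. The files used here hold no detection calls, so dim probe sets have no stated background. The number of arrays limits what can be told: the change of Ms4a7, about the size of its SE, was not detectable.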
